A study of Homo sapiens with 15 samples.

Results

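RIMS1, RIMS2, CADM1, CADM2, NRXN3, NLGN1 and SYT1 are 7 genes of the synapse whose chromatin was followed in a breast cancer cell line and its metastatic sub-populations. Every consensus ChIP-seq peak overlapping the annotated body of a listed gene was taken. Peaks outside the body were added where their nearest protein-coding start belonged to a listed gene and lay within 100 kb. This gave 54 of 84767 peaks, of which 39 of 62195 carried H3K27ac and 15 of 22572 carried H3K4me3. H3K27ac and H3K4me3 peaks numbered 7 and 2 at RIMS1, 4 and 2 at RIMS2, 1 and 2 at CADM1, 1 and 2 at CADM2, 5 and 2 at NRXN3, 8 and 4 at NLGN1, and 13 and 1 at SYT1. Only 2 of the 54 lay outside the gene body. RIMS2 and CADM2 were chosen by their measured H3K4me3 and H3K27ac values in these libraries, RIMS2 as an example shown by the study and CADM2 from an earlier description of the same counts. They are given as a description with no test, and tests are given for the peaks of the other 5 genes (34 H3K27ac and 11 H3K4me3). These 5 genes too were listed with earlier results of these data known.

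The question was how H3K4me3, found at active promoters, and H3K27ac, found at active enhancers as well as promoters, differ between MDA-MB-231 cells and sub-populations selected for metastasis. MDA-MB-231 is a claudin-low, triple-negative human breast cancer cell line, and the parental line (Par) was compared with LM2, selected in vivo for lung colonization, and BrM2, selected in vivo for brain colonization. All 3 lines were grown alike in culture for 3 days in 10% serum before fixation, so no library came from a tumour or from brain or lung tissue. Each line had 2 replicates per mark, which the study calls biological, and each sub-population was represented by 1 selected line. A stronger signal per cell, a signal in more cells and a higher copy number of a region cannot be told apart in such counts.

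Synapses are contacts through which neurons signal. On the adhesion side, neurexins such as NRXN3 sit on the presynaptic membrane and bind neuroligins such as NLGN1 across the cleft, and the immunoglobulin-type adhesion molecules CADM1 and CADM2 hold cells together at synapses and at epithelial contacts. On the release side, the scaffold proteins RIMS1 and RIMS2 organize the presynaptic active zone where vesicles dock, and synaptotagmin 1 (SYT1) is the vesicle calcium sensor that triggers fusion. Neurexin genes have an upstream promoter for long alpha forms and a downstream promoter, inside the gene, for shorter beta forms.

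Total counts in peaks, in megareads, ran from 1.99 to 6.45 per H3K27ac library, lowest in BrM2 replicate 2, and from 3.49 to 9.84 per H3K4me3 library. Levels are given as CPM, the reads in a peak per megaread in all peaks of that library. Replicates of a line correlated across peaks with r = 0.938 to 0.945 for H3K27ac and 0.98 to 0.982 for H3K4me3, above the values between lines (0.876 to 0.913 and 0.936 to 0.971). H3K4me3 promoter peaks were present at 6 of 6 mesenchymal genes that mark MDA-MB-231 cells, with mean levels at the 51.9th to 98.5th percentile of promoter peaks, and at 6 of 6 luminal breast genes (25.4th to 65.5th). None of 4 defining neuronal genes (RBFOX3, STMN2, NEFL and ELAVL4) had such a peak. Of the glial markers, GFAP (17.8th percentile) and MBP (74.9th, within the mesenchymal range) had one and OLIG2 and SOX10 had none. Of the lung epithelial markers, SFTPC (5.94th) and NKX2-1 (33.9th) had one and SFTPB had none.

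The sequences that precede the starts with the clearest differences in H3K4me3 are shown first, since the results below return to them. Each holds the 250 bases before an annotated start in GRCh37 (hg19), 5′ to 3′ on the strand of the gene, lies wholly under an H3K4me3 peak and overlaps no annotated UTR. Capitals mark a GGGCGG or CCAAT box on either strand, and TGACTCA and TATAAA were searched in the same way.
NRXN3 internal start, chr14:79745432-79745681, plus strand: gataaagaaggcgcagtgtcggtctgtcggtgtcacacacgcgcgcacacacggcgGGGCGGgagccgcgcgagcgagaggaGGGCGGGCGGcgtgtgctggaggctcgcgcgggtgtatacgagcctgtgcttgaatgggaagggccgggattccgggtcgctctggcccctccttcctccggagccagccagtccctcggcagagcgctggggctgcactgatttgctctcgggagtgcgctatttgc
CADM2 start, chr3:85007890-85008139, plus strand: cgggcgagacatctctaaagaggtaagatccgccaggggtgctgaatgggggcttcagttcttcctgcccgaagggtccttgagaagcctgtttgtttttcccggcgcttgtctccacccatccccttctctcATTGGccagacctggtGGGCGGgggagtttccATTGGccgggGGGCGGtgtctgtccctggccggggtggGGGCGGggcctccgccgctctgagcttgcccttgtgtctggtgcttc
CADM1 start, chr11:115375676-115375925, minus strand: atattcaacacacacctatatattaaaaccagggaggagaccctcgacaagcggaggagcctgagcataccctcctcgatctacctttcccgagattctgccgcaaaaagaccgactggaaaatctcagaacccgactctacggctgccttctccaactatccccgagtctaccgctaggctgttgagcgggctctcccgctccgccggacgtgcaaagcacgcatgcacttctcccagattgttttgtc
The NRXN3 window held 3 GGGCGG matches that partly overlap, a GC content of 68.0% and 28 CpG dinucleotides. The CADM2 window held 3 GGGCGG and 2 CCAAT matches, 63.6% GC and 13 CpG. The CADM1 window held 0 matches to any of the 4 motifs, 54.0% GC and 16 CpG. Over 35116 promoter windows of the same length in RefSeq (GRCh38.p14), 42.6% held GGGCGG, 32.0% CCAAT, 10.7% TATAAA and 4.2% TGACTCA, and the median GC content was 58.0%.

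At NRXN3 both marks were far higher in BrM2 than in Par. All 5 of its H3K27ac peaks and the H3K4me3 peak at its internal start rose in BrM2, and in LM2 only the strongest H3K27ac peak rose. The gene spans chr14:78636716-80334634, and its peaks all lay within introns or exons of the body and none at the upstream-most start.

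The internal start of NRXN3 had an H3K4me3 peak at chr14:79744897-79747066, where 6 of the 14 annotated transcripts begin and encode 366 to 670 residues, against 1571 for the longest form of the gene. Its H3K4me3 level was 0.860 and 1.49 CPM in Par, against 0.230 and 1.12 in LM2 and 28.6 and 41.0 in BrM2. Both BrM2 libraries lay far above the other 4, which overlapped. The mean was 34.8 ± 8.79 CPM (SD, n = 2) in BrM2 against 1.17 ± 0.445 in Par, a 29.6-fold difference. The log2 fold change was 4.78 ± 0.61 (SE, adjusted p = 4.95e-12, DESeq2) against Par and 5.42 ± 0.63 (adjusted p = 1.49e-14, DESeq2) against LM2. LM2 and Par gave -0.65 ± 0.76 (adjusted p = 1, DESeq2). No H3K27ac peak overlapped this H3K4me3 peak, whereas 87.6% of all H3K4me3 peaks (19771) and 8 of the 15 H3K4me3 peaks of the 7 genes (53.3%) overlapped one. The other NRXN3 H3K4me3 peak, in an intron at chr14:79426376-79426688, ranged from 0.218 to 1.38 CPM with no call in any comparison.

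**Figure D1:**
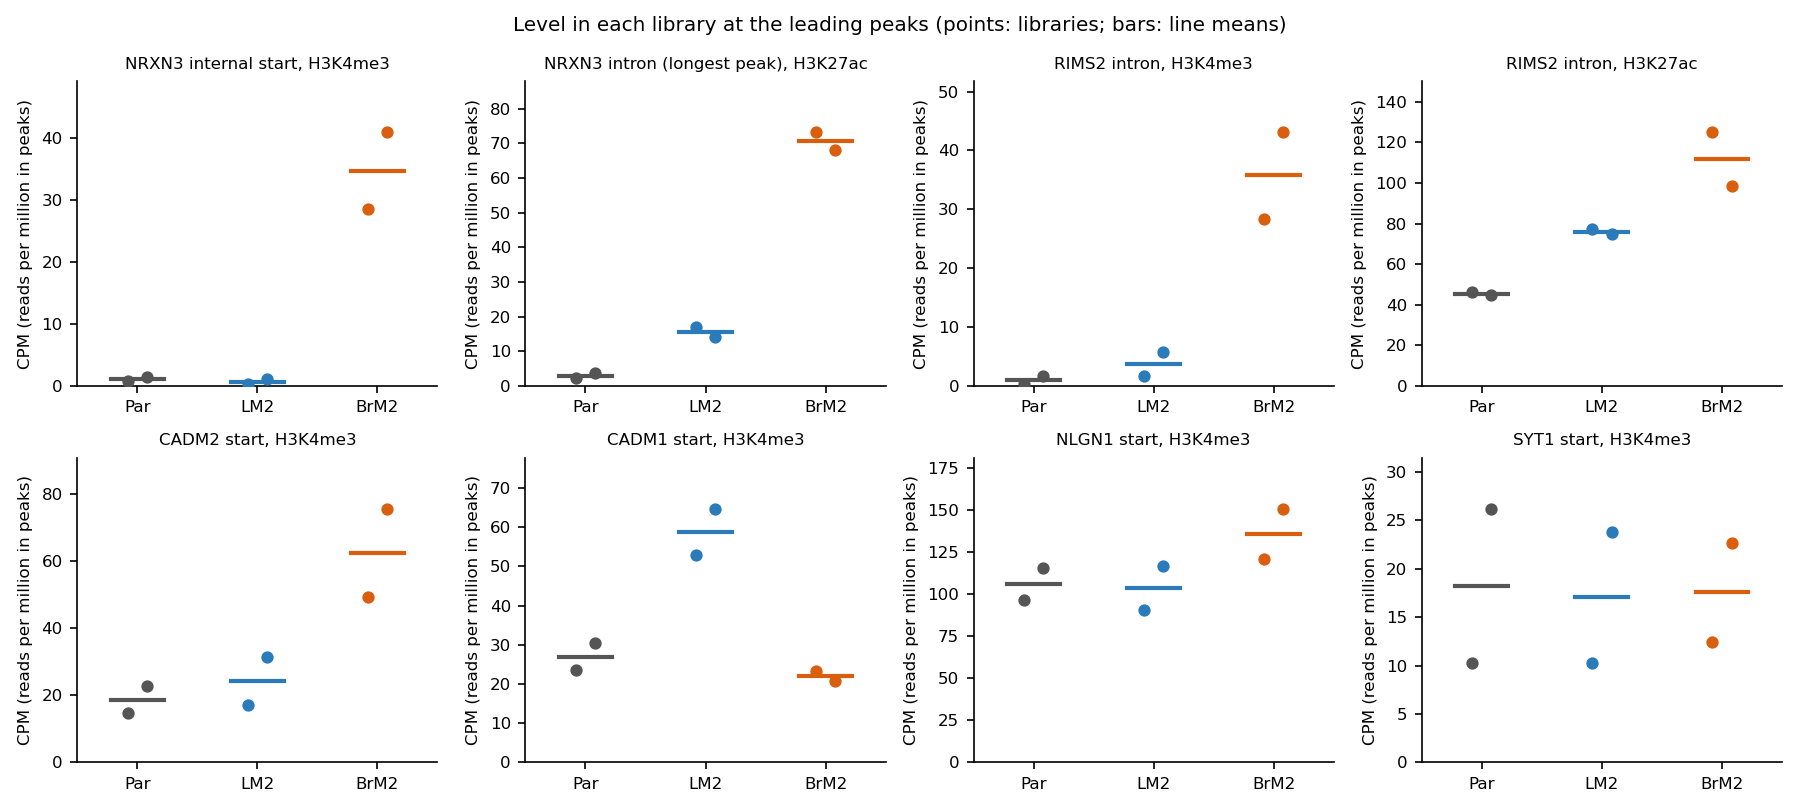
Level in CPM (linear axis from 0) in each library of Par, LM2 and BrM2 at 8 leading peaks, with points for the 2 libraries of a line and bars for their mean. The NRXN3 internal start held 28.6 and 41.0 CPM of H3K4me3 in BrM2 and at most 1.49 in the other lines, whereas all lines overlapped at the SYT1 start. Par and LM2 overlapped at the NRXN3, CADM2, NLGN1 and SYT1 starts and at the intronic RIMS2 H3K4me3 peak.

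The H3K27ac peaks of NRXN3 all lay at least 203736 bp from any annotated start of the gene. The longest one, in an intron at chr14:80047603-80053406, held 2.28 and 3.65 CPM in Par, against 17.1 and 14.1 in LM2 and 73.2 and 68.2 in BrM2. The lines did not overlap, with LM2 between Par and BrM2. It rose by a log2 fold change of 2.35 ± 0.44 in LM2 (adjusted p = 2.22e-05, DESeq2), by 4.59 ± 0.43 in BrM2 (adjusted p = 1.29e-22, DESeq2) and by 2.24 ± 0.34 from LM2 to BrM2 (adjusted p = 3.33e-08, DESeq2), and each call held without any 1 library.

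A second intronic H3K27ac peak, at chr14:79477107-79479043, held 2.28 and 0.261 CPM in Par, against 3.88 and 4.25 in LM2 and 21.7 and 14.5 in BrM2. BrM2 exceeded Par by 3.80 ± 0.67 on the log2 scale (adjusted p = 4.04e-06, DESeq2) and LM2 by 2.24 ± 0.56 (adjusted p = 0.00539, DESeq2). The second call was lost without LM2 replicate 1 (adjusted p = 0.296, DESeq2), LM2 replicate 2 (0.133), BrM2 replicate 1 (0.781) or BrM2 replicate 2 (0.13). The first held without any 1 library, but its size rested on the Par libraries, at 3.01 with the first alone and 6.13 with the second alone.

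The 3 weaker H3K27ac peaks of NRXN3 had at most 3 counts in each Par library, so their folds are lower bounds set against that floor per library. The peak at chr14:79433530-79434610 was at least 9.47-fold higher in BrM2 (adjusted p = 0.00399, DESeq2), with 0.228 and 0.261 CPM in Par, against 1.40 and 2.13 in LM2 and 6.88 and 7.02 in BrM2. The peak at chr14:79950342-79951035 was at least 9.82-fold higher in BrM2 (adjusted p = 0.00469, DESeq2), with 0 and 0.522 CPM in Par, against 0.465 and 0.266 in LM2 and 7.39 and 7.02 in BrM2. That peak also exceeded LM2, by at least 11.4-fold (adjusted p = 0.00375, DESeq2). The weakest, at chr14:79483105-79483852, was at least 6.54-fold higher in BrM2 (adjusted p = 0.0298, DESeq2), with 0.456 and 0.261 CPM in Par, against 1.09 and 2.66 in LM2 and 4.08 and 5.51 in BrM2. Without either library of Par or of BrM2, independent filtering left the first and the second of these 3 with no adjusted p against Par. The second also had none against LM2 with TMM size factors, with the replicate block, or without LM2 replicate 1 or either BrM2 library, and its call was lost without LM2 replicate 2 (adjusted p = 0.112, DESeq2). The call of the weakest was lost without LM2 replicate 1 (adjusted p = 0.063, DESeq2), and it had no adjusted p without any 1 of the other 5 libraries or with the surrounding median removed.

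Summed over its 5 peaks, H3K27ac at NRXN3 was 5.25 and 4.96 CPM in Par, against 23.9 and 23.4 in LM2 and 113 and 102 in BrM2. This is a 4.63-fold mean difference for LM2 and a 21.1-fold one for BrM2. The surrounding peaks differed little. The 60 other H3K27ac peaks within 2.5 Mb of the gene had a median log2 fold change of -0.01 between BrM2 and Par, with 3 called higher, and the 39 other H3K4me3 peaks had a median of -0.07. The recognition sequence TGACTCA, which AP-1 factors bind, occurred in 2 of the 5 NRXN3 H3K27ac peaks, and it is shown with its flanks (plus strand of GRCh37, capitals for the match on either strand) because these are the peaks with the most reads.
chr14:79478299-79478339: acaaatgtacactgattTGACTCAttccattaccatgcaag
chr14:80051251-80051291: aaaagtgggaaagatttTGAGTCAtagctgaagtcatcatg
chr14:80053285-80053325: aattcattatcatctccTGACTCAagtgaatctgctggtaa
Of H3K27ac peaks within 10% of the same length, 41.2% of 4804 held at least 1 match for the shorter peak and 44.5% of 1880 held at least 2 for the longer one, so as many matches were common in peaks of that size.

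NLGN1, which encodes a postsynaptic partner of the neurexins, had its strongest marks at its upstream-most start in all lines. H3K4me3 at chr3:173112564-173117141 was 96.6 and 116 CPM in Par, against 90.7 and 117 in LM2 and 121 and 151 in BrM2. BrM2 was above both other lines, by a log2 fold change of 0.29 ± 0.30 (adjusted p = 0.959, DESeq2) against Par. With the replicate number as a block, the difference from LM2 (0.30) passed the threshold (adjusted p = 0.0477 against 0.886 without the block, DESeq2). H3K27ac over the same start, at chr3:173111544-173118337, was 46.8 and 52.7 CPM in Par, against 43.9 and 68.9 in LM2 and 52.5 and 64.7 in BrM2, with the lines within 0.23 of each other on the log2 scale and no call.

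An internal start of NLGN1 at chr3:173302612-173303470, used by 2 of its 6 annotated transcripts, had weak H3K4me3 of 3.73 and 4.62 CPM in Par, against 1.61 and 1.63 in LM2 and 0.437 and 1.36 in BrM2. Both metastatic lines lay below Par. The difference of BrM2 from Par, -2.24 ± 0.88, did not pass (adjusted p = 0.182, DESeq2) but did with the replicate block (-2.26, adjusted p = 0.0439, DESeq2). Of the other H3K4me3 peaks, an intronic one at chr3:173983128-173983493 differed between BrM2 and LM2 only with the block (adjusted p = 0.0337 against 0.14, DESeq2), at no more than 2.44 CPM in any library. The H3K27ac peak with the highest level per kb, in an intron at chr3:173465571-173465932, held 1.37 and 1.04 CPM in Par, against 4.81 and 2.39 in LM2 and 4.59 and 4.01 in BrM2 (log2 fold change of 1.84 ± 0.85 from Par to BrM2, adjusted p = 0.237, DESeq2). The remaining 6 H3K27ac peaks of NLGN1 ranged from 0.255 to 15.5 CPM. None of the 8 was called in any comparison by DESeq2 or by edgeR, and 2 had an unadjusted p under 0.05 between BrM2 and Par. Summed H3K27ac at NLGN1 was 79.6 and 71.5 CPM in Par, against 77.7 and 98.4 in LM2 and 83.3 and 97.2 in BrM2.

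CADM1, an adhesion molecule of epithelia and synapses, differed in the opposite sense from NRXN3, with the highest H3K4me3 in LM2. Its start on the minus strand, at chr11:115373315-115376156, held 23.5 and 30.5 CPM in Par, against 52.8 and 64.7 in LM2 and 23.4 and 20.7 in BrM2. Both LM2 libraries were above all others. H3K4me3 rose by 1.15 ± 0.35 in LM2 against Par (adjusted p = 0.0424, DESeq2) and was lower in BrM2 than in LM2 (-1.50 ± 0.35, adjusted p = 0.00139, DESeq2). BrM2 and Par gave -0.35 ± 0.36 (adjusted p = 0.962, DESeq2). The first call lay close to the threshold. It was lost without any 1 of the 6 libraries (log2 fold changes of 1.11 to 1.19, adjusted p = 0.0759 to 0.527, DESeq2) and in edgeR (adjusted p = 0.0525). The second was lost without LM2 replicate 1 (adjusted p = 0.0749, DESeq2), LM2 replicate 2 (0.077) or BrM2 replicate 2 (0.268).

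H3K27ac at the CADM1 start, at chr11:115373732-115375052, was low and variable, with 7.07 and 3.39 CPM in Par, against 11 and 3.46 in LM2 and 4.59 and 0.501 in BrM2. The lines overlapped. The surroundings of CADM1 were lower in BrM2 as well, with 66 of the 73 other H3K27ac peaks within 2.5 Mb below Par, a median of -0.74 and 5 called lower. With the median of the surrounding H3K4me3 peaks removed, the H3K4me3 difference of LM2 from Par at the start was 1.30 (adjusted p = 0.0399, DESeq2). The H3K4me3 difference of BrM2 from LM2 was then -1.40 (adjusted p = 0.0133, DESeq2). For H3K27ac at the start, the same removal gave 0.69 (adjusted p = 0.991, DESeq2) and -0.92 (adjusted p = 0.981, DESeq2), with no call. A weak intronic H3K4me3 peak at chr11:115195516-115195750 stayed between 0.218 and 1.12 CPM.

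CADM2, an adhesion molecule of neurons, is described here with no test. Its start at chr3:85007508-85009395 had H3K4me3 of 14.6 and 22.8 CPM in Par, against 17.2 and 31.3 in LM2 and 49.3 and 75.6 in BrM2. Par and LM2 overlapped, and both BrM2 libraries were higher. The log2 fold change of BrM2 was 1.67 ± 0.38 against Par and 1.28 ± 0.37 against LM2. H3K27ac at the start, at chr3:85008204-85009154, was 1.82 and 2.61 CPM in Par, against 0.93 and 1.33 in LM2 and 3.31 and 9.52 in BrM2, with the BrM2 replicates far apart and LM2 lowest. Its log2 fold change of 1.49 ± 0.79 for BrM2 against Par was 0.59 without BrM2 replicate 2.

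A weaker H3K4me3 peak lay in an intron of CADM2, at chr3:85899330-85899870. It held 0 and 0.298 CPM in Par, against 0.459 and 0.305 in LM2 and 4.37 and 6.07 in BrM2, which is at least 7.99-fold above Par against a floor of 3 counts per library.

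The peaks around CADM2 were also higher in BrM2. Of the 26 other H3K27ac peaks within 2.5 Mb, 18 were above Par with a median of 1.08, against a median of 0.04 over chromosome 3, and the 17 other H3K4me3 peaks had a median of 2.47. Within 2.5 Mb of the start itself, the window used to remove local differences, the medians were 2.91 over 21 H3K27ac peaks and 2.73 over 13 H3K4me3 peaks. Removing the median of these peaks, library by library, turned the H3K4me3 difference at the CADM2 start from 1.67 to -0.99 for BrM2 and from 0.39 to -1.09 for LM2, and the H3K27ac difference from 1.49 to -0.33 for BrM2. The higher H3K4me3 at the CADM2 start was therefore smaller than the median difference of the peaks around it.

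**Figure D2:**
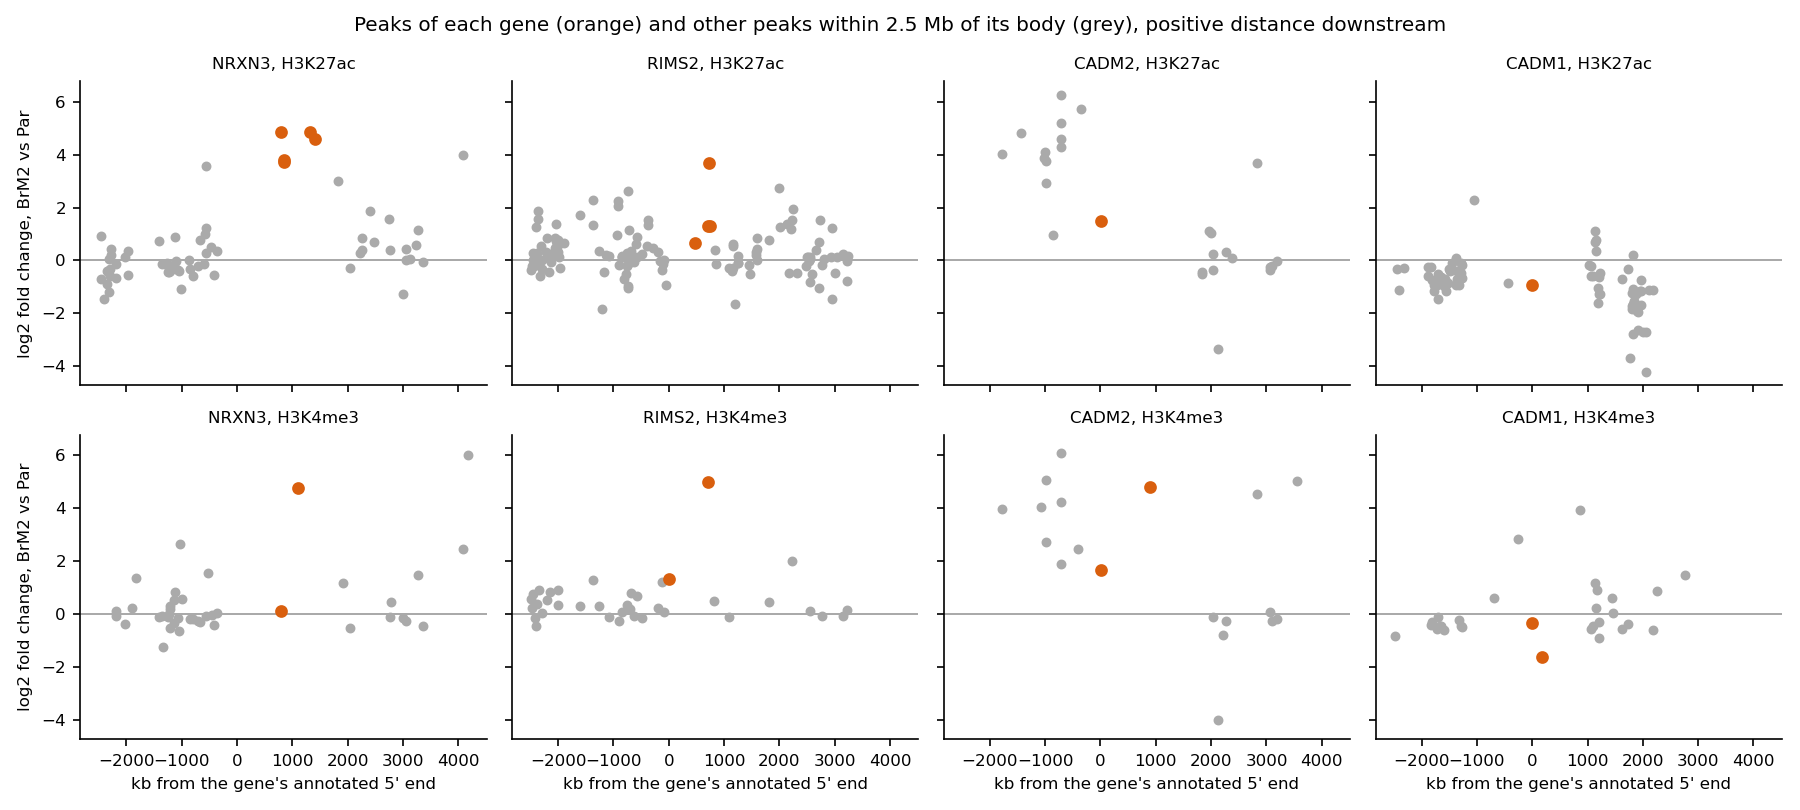
Log2 fold change of BrM2 against Par for the peaks of NRXN3, RIMS2, CADM2 and CADM1 (orange) and for other peaks within 2.5 Mb of each gene (grey), by distance in kb from the annotated 5′ end of the gene, with H3K27ac above and H3K4me3 below. All 5 NRXN3 H3K27ac peaks stood above a surrounding median of -0.01, while the CADM2 start lay below many peaks upstream of it.

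At RIMS1, a scaffold of the active zone, no peak was called in any comparison by DESeq2 or by edgeR. Its H3K27ac peaks with an unadjusted p under 0.05 numbered 0, 1 and 1 of 7 for LM2 against Par, BrM2 against Par and BrM2 against LM2, and its H3K4me3 peaks 0 of 2 in each. The upstream-most start at chr6:72595891-72596967 had H3K4me3 of 13.8 and 15.5 CPM in Par, against 13.3 and 22.0 in LM2 and 21.8 and 27.8 in BrM2. LM2 spanned the gap between the others. The log2 fold change of BrM2 against Par was 0.70 ± 0.40 (adjusted p = 0.588, DESeq2). H3K27ac at that start, at chr6:72596184-72596709, was 2.51 and 2.09 CPM in Par, against 2.95 and 2.13 in LM2 and 5.61 and 8.52 in BrM2, or 1.59 ± 0.70 for BrM2 against Par (adjusted p = 0.2, DESeq2).

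The internal RIMS1 start at chr6:72891947-72893163 had more H3K4me3 than the upstream one, with 32.1 and 38.3 CPM in Par, against 26.9 and 40.6 in LM2 and 24.4 and 33.7 in BrM2. All 3 lines overlapped. H3K27ac there (chr6:72891802-72892919) ran from 7.02 to 12.4 CPM over the 6 libraries, also with overlap. The H3K27ac peak next to a downstream start, at chr6:73072695-73074510, ran from 8.06 to 14.5 CPM, and the one with the highest level per kb, in an intron at chr6:72743196-72743416, from 1.06 to 3.82 CPM. The other 3 H3K27ac peaks of RIMS1 lay between 0.93 and 12.2 CPM.

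RIMS2, the paralog of RIMS1, is likewise described with no test. Its upstream-most start, where 14 of its 24 annotated transcripts begin, had next to no H3K4me3. The nearest H3K4me3 peak, at chr8:104511025-104511268 and inside the body of another annotated gene (ENSG00000285982), held 0 and 0.298 CPM in Par, against 0.918 and 1.02 in LM2 and 0 and 0.867 in BrM2.

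The H3K4me3 of RIMS2 lay instead in an intron at chr8:105211938-105214962, 20630 bp from the nearest annotated RIMS2 start. It held 0.287 and 1.64 CPM in Par, against 1.61 and 5.79 in LM2 and 28.4 and 43.1 in BrM2. Par and LM2 overlapped, and BrM2 stood apart, with a log2 fold change of 5.01 ± 0.66 against Par and 3.16 ± 0.53 against LM2. The change of LM2 against Par, 1.85 ± 0.69, was 3.57 without Par replicate 2 and 0.80 without LM2 replicate 2, and that of BrM2 against Par was 6.72 without Par replicate 2.

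The whole of that peak lay within the longest H3K27ac peak of the gene, at chr8:105209944-105219899, where the difference was smaller. H3K27ac there was 46.1 and 44.9 CPM in Par, against 77.4 and 74.7 in LM2 and 125 and 98.7 in BrM2. The 3 lines did not overlap, with log2 fold changes of 0.68 ± 0.27 for LM2 and 1.31 ± 0.27 for BrM2 against Par. In Par, those 46.1 and 44.9 CPM of H3K27ac stood at a site where H3K4me3 had 1 and 11 counts.

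A second H3K27ac peak, at chr8:105235193-105235987, covered an internal RIMS2 start that encodes a form of 285 residues, against 1607 for the longest. It held 0.456 and 0.522 CPM in Par, against 0.465 and 1.06 in LM2 and 7.39 and 5.01 in BrM2, at least 8.45-fold above Par against the floor. The other 2 peaks, at chr8:104991742-104994165 and chr8:105253296-105254476, ranged from 5.70 to 11 and from 1.14 to 5.58 CPM. Peaks around RIMS2 were slightly higher in BrM2 than in Par. The median was 0.14 over 131 other H3K27ac peaks (83 above Par) and 0.30 over 35 other H3K4me3 peaks (26 above Par). Over chromosome 8 the medians were 0.06 and 0.05. With the surrounding median removed, the intronic H3K4me3 difference of BrM2 from Par was 4.76 and that of the longest H3K27ac peak was 1.09.

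SYT1, the calcium sensor of synaptic vesicles, had the most H3K27ac peaks, and its start was alike in the 3 lines. H3K4me3 at chr12:79257107-79258388 was 10.3 and 26.2 CPM in Par, against 10.3 and 23.8 in LM2 and 12.4 and 22.7 in BrM2. Replicates differed more than lines. H3K27ac at the start (chr12:79256546-79258336) stayed between 8.02 and 9.61 CPM, and an internal start at chr12:79356726-79359606 ran from 10.7 to 27.6 CPM, with no call.

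The SYT1 peaks that differed lay at the 3′ end of the gene, 367551 and 403563 bp from its nearest start, and their nearest protein-coding start was that of PAWR. H3K27ac at chr12:79843661-79849584 was 30.3 and 18.3 CPM in Par, against 34.1 and 33.0 in LM2 and 56.3 and 54.6 in BrM2. It rose by 1.19 ± 0.33 in BrM2 against Par (adjusted p = 0.012, DESeq2). The 12921-bp peak at chr12:79807649-79820569 held 116 and 72.6 CPM in Par, against 81.7 and 98.9 in LM2 and 190 and 153 in BrM2. It rose by 1.00 ± 0.30 in BrM2 against LM2 (adjusted p = 0.0344, DESeq2). Its difference from Par, 0.87 ± 0.30, passed only with the replicate block (adjusted p = 0.00535 against 0.0623, DESeq2), in edgeR (0.0288), with a minimum mean count of 10 (0.05 after rounding) or without Par replicate 1 (0.0219).

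The 110 other H3K27ac peaks within 2.5 Mb of SYT1 were also higher in BrM2 than in Par (median 0.34). With the median of the surroundings removed, both calls were lost (0.87, adjusted p = 0.0849, and 0.71, adjusted p = 0.202, DESeq2). The call of the first peak was also lost without Par replicate 2 (adjusted p = 0.282, DESeq2), BrM2 replicate 1 (0.293) or BrM2 replicate 2 (0.165). That of the second was lost without LM2 replicate 1 (0.53), LM2 replicate 2 (0.145), BrM2 replicate 1 (0.772) or BrM2 replicate 2 (0.197). Another peak nearby, at chr12:79801580-79805317, ran from 29.3 to 55.8 CPM with no call, and the other 8 ranged from 0.501 to 47.4 CPM.

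**Figure D3:**
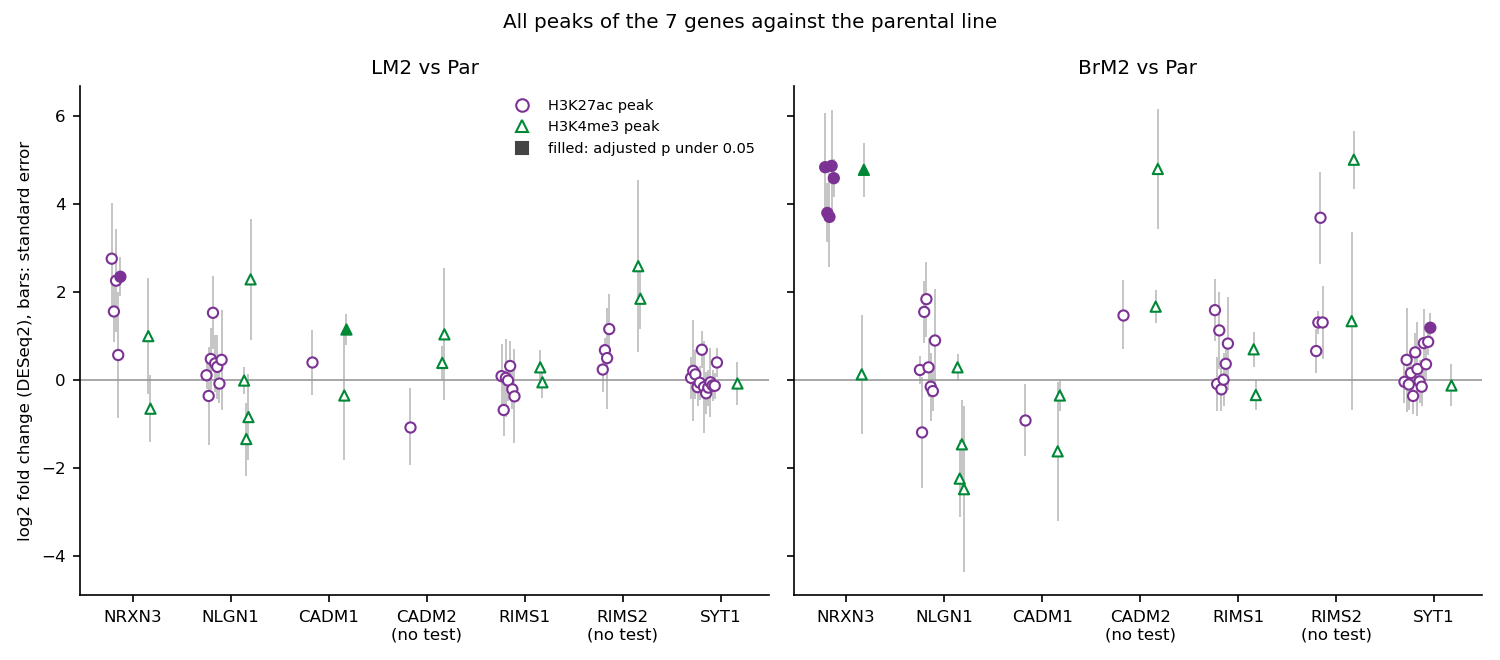
Log2 fold change with its standard error for all 54 peaks by gene, with LM2 against Par on the left and BrM2 against Par on the right, circles for H3K27ac and triangles for H3K4me3, filled where the adjusted p passed 0.05. In BrM2 the 5 H3K27ac peaks of NRXN3 lay between 3.71 and 4.87, whereas the peaks of SYT1 stayed between -0.36 and 1.19.

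Over the 5 tested genes, 6 of the 29 H3K27ac peaks with an adjusted p rose in BrM2 against Par (20.7%) and 0 fell, against 5.29% of all tested peaks called in either direction and 3.62% called higher. Of the 6, 5 belonged to NRXN3 and 1 to SYT1, so without NRXN3 the count was 1 of 24. The genes, and the synaptic list below, were chosen with earlier results of these data known. Shares set beside those of all peaks are therefore a description and no test of the genes as a set. In LM2 against Par, 1 of 29 rose (3.45%), against 3.63% of all tested peaks called and 2.72% called higher, and it was at NRXN3. Between BrM2 and LM2, 4 of 27 were higher in BrM2 (14.8%), against 2.94% of all peaks called and 1.71% called higher, 3 of them at NRXN3. The median log2 fold change of BrM2 against Par was 0.37 over the 34 peaks and -0.02 over all peaks. Without any 1 library the count for BrM2 against Par was 2 to 5 (2 without Par replicate 2, BrM2 replicate 1 or BrM2 replicate 2), and that for BrM2 against LM2 was 1 without any 1 of the LM2 or BrM2 libraries. Counted by libraries that did not overlap, 16 of the 34 peaks were higher and 0 lower in BrM2 than in Par, where 24.8% and 25.6% of all peaks were. In LM2 against Par 9 were higher and 2 lower (24.7% and 18.3% of all peaks), and in BrM2 against LM2 14 and 3 (20% and 27.2%).

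For H3K4me3, 1 of 11 peaks rose in BrM2 against Par (9.09%, NRXN3), against 3.61% of all tested peaks called and 2.82% called higher, and with the replicate block 1 rose and 1 fell. In LM2 against Par, 1 of 10 rose (10.0%, CADM1), against 2.51% called and 1.97% called higher. Between BrM2 and LM2, 1 was higher and 1 lower (18.2% of 11), against 3.18% of all peaks called, 2.05% higher and 1.13% lower. With the block, 2 were higher and 2 lower. The shares of all peaks called with the block are not given, so its counts cannot be set against them. The call of CADM1 in LM2 was lost without any 1 library, and between BrM2 and LM2 1 call was left without LM2 replicate 1, LM2 replicate 2 or BrM2 replicate 2. Medians were -0.34 for BrM2 and -0.05 for LM2 against Par. Both contrasts against Par use the same Par libraries. By non-overlap, 3 of the 11 peaks were higher and 5 lower in BrM2 than in Par (21.4% and 14.1% of all peaks), 3 and 2 in LM2 against Par (19.1% and 12%), and 2 and 3 in BrM2 against LM2 (19.5% and 17.5%).

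Per kb of peak, the order of the genes differed between the lines. H3K27ac in Par was lowest at NRXN3, with 0.497 ± 0.0197 CPM per kb (SD, n = 2), and highest at SYT1 (6.35 ± 2.24), NLGN1 (5.84 ± 0.441), RIMS1 (5.50 ± 0.629) and CADM1 (3.96 ± 1.97), whose ranges overlapped from each to the next. RIMS2 (3.77 ± 0.0711) overlapped CADM1, and CADM2 (2.33 ± 0.584) overlapped neither RIMS2 above it nor NRXN3 below it. In BrM2 the order began with NRXN3 (10.5 ± 0.752), SYT1 (9.23 ± 1.64) and RIMS2 (9.22 ± 1.43), which overlapped from each to the next, followed by NLGN1 (6.97 ± 0.759), RIMS1 (6.77 ± 0.289) and CADM2 (6.75 ± 4.62), and ended with CADM1 (1.93 ± 2.19). In LM2, NLGN1 (6.80 ± 1.13) and SYT1 (6.53 ± 0.116) led and NRXN3 (2.30 ± 0.0326) and CADM2 (1.19 ± 0.297) were lowest.

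For H3K4me3, RIMS2 (0.340 ± 0.357 CPM per kb) and NRXN3 (0.736 ± 0.0617) were lowest in Par and did not overlap the next gene, CADM2 (7.76 ± 2.47). RIMS1 (21.7 ± 2.44) and NLGN1 (18.6 ± 2.38) were highest and overlapped. In BrM2, CADM2 (27.9 ± 8.14), RIMS1 (23.5 ± 4.68) and NLGN1 (22.6 ± 3.74) led, NRXN3 (14.3 ± 3.83), SYT1 (13.7 ± 5.65) and RIMS2 (11.1 ± 3.38) overlapped in the middle, and CADM1 (7.25 ± 0.576) was lowest.

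**Figure D4:**
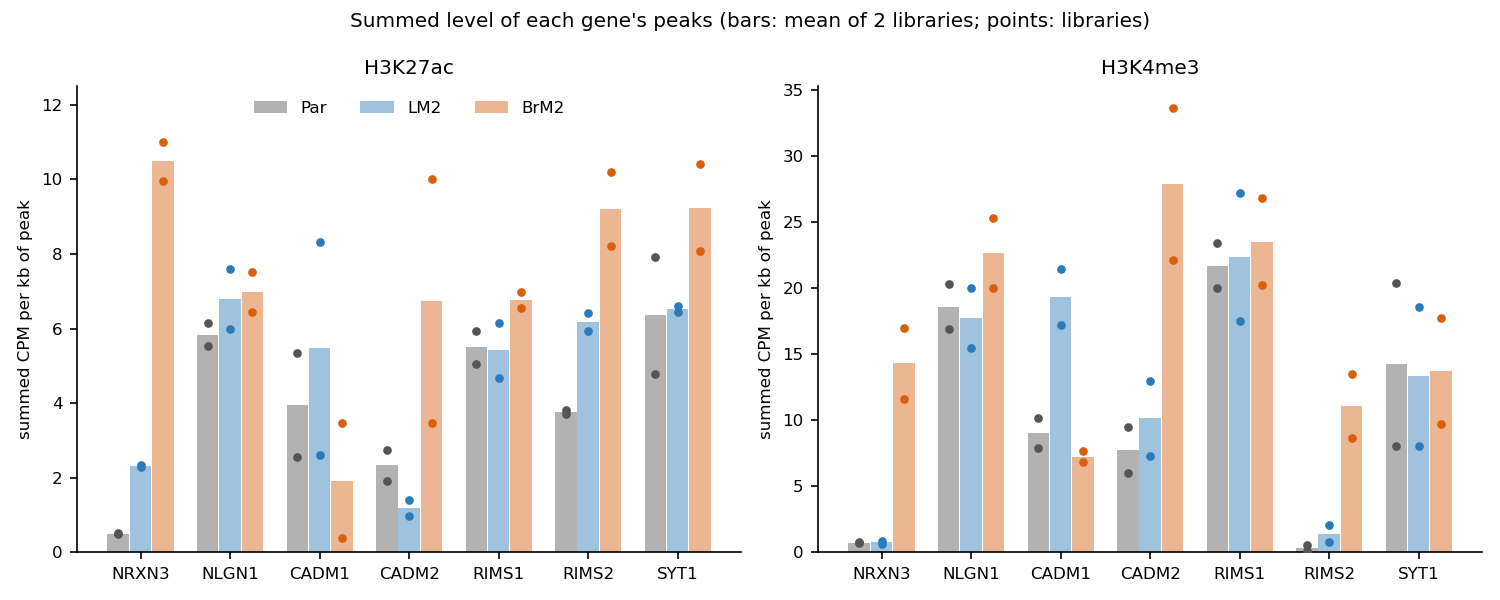
CPM summed over the peaks of each gene and divided by their length in kb, for H3K27ac (left) and H3K4me3 (right), with bars for the mean of the 2 libraries of a line and points for the libraries. H3K27ac at NRXN3 went from 0.497 in Par through 2.30 in LM2 to 10.5 in BrM2, and H3K4me3 at CADM1 was highest in LM2.

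Summed H3K27ac of RIMS2 was 53.4 and 54.8 CPM in Par, against 92.1 and 85.1 in LM2 and 147 and 118 in BrM2. Across the 6 libraries the genes most like it in log2(CPM + 1), among 5788 genes of similar level, were SEC22B (Pearson r = 0.995), SLC8B1 (0.991) and CLEC9A (0.989), and 153 genes had r over 0.9. For CADM2 they were RUNX1T1 (0.986), FOXN4 (0.97) and HHLA2 (0.957) of 1372, with 25 over 0.9. The 6 points come from 3 lines, and these values only describe the libraries.

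Other genes of the synapse were read from a list of 86, sorted into active zone, adhesion, vesicle and fusion, and postsynaptic scaffold, by their peaks within 2 kb of a start. H3K4me3 promoter peaks were found for 57 of them (71 peaks) and H3K27ac ones for 53 (70 peaks). In BrM2 against Par, 5 of 71 H3K4me3 peaks rose and 1 fell (8.45%), against 2.97% of all promoter peaks. Of the 5, 4 belonged to the adhesion genes, which had 17 peaks and a median of 0.64 against -0.07 over all promoter peaks. The vesicle and scaffold genes had no call, with 3 of 20 and 0 of 14 at an unadjusted p under 0.05 and 0 calls in edgeR.

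ADGRL3, a latrophilin that acts as an adhesion receptor, differed most in H3K4me3, with 4.87 and 7.30 CPM in Par, against 0.689 and 1.22 in LM2 and 56.5 and 60.0 in BrM2 at chr4:62065814-62067714. It rose by 3.20 ± 0.42 in BrM2 (adjusted p = 2.06e-11, DESeq2) and fell by 2.60 on the log2 scale in LM2 (adjusted p = 7.30e-04, DESeq2). With the surrounding median removed, the BrM2 difference was 0.44 (adjusted p = 1, DESeq2) and the LM2 one -3.33. LRRTM1, a postsynaptic neurexin ligand, held at most 0.573 CPM in Par and LM2 and 6.33 and 11 in BrM2, at least 13.3-fold above Par against the floor of 3 counts per library (adjusted p = 0.00161, DESeq2). SLITRK3, a postsynaptic adhesion protein, rose by 2.65 ± 0.66 (adjusted p = 0.00309, DESeq2), but LRRTM1 and SLITRK3 differed by only 0.87 and 0.91 with the surrounding median removed (adjusted p = 1 for both). PTPRD, a receptor phosphatase that binds postsynaptic ligands, went from 4.01 and 4.32 CPM in Par to 19.2 and 23.2 in BrM2 (2.29 ± 0.49, adjusted p = 3.30e-04, DESeq2), and its difference stayed called with the surrounding median removed (2.58, adjusted p = 1.63e-04).

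Of the active zone genes, ERC2, a RIM-binding scaffold, rose in both lines, by 1.28 ± 0.37 in LM2 (adjusted p = 0.0293, DESeq2) and 1.26 ± 0.37 in BrM2 (adjusted p = 0.0268, DESeq2). CASK, a scaffold kinase that binds neurexin tails, fell by 1.25 on the log2 scale in BrM2 (adjusted p = 0.00772, DESeq2). With the surrounding median removed neither was called, although the differences of ERC2 stayed at 1.22 in LM2 and 1.11 in BrM2 (adjusted p = 0.0985 and 0.148, DESeq2), while that of CASK in BrM2 shrank to -0.63 (0.839). ERC2 in LM2 was not called in edgeR (0.0519). In LM2 against Par, 3 of 69 H3K4me3 peaks rose and 1 fell (5.80%), against 2.28% of all promoter peaks. Besides ERC2 and ADGRL3 these were SLITRK5, an adhesion protein (1.35 ± 0.33, adjusted p = 0.00438, DESeq2, but -0.72 with the surrounding median removed), and SNAP25, a membrane fusion protein, which rose by 2.03 ± 0.61 (adjusted p = 0.0405, DESeq2, but 0.0987 in edgeR and 0.674 with the surrounding median removed).

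**Figure D5:**
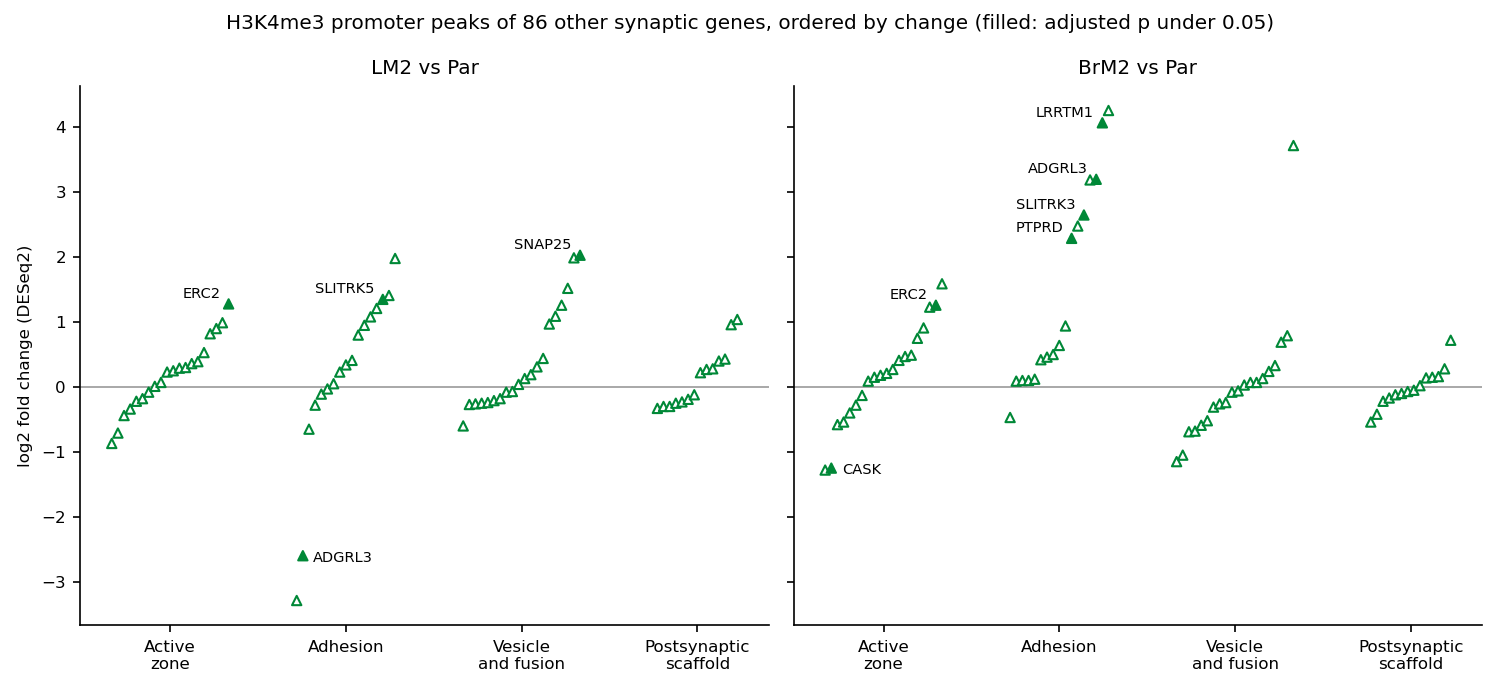
Log2 fold change of H3K4me3 at the promoter peaks of the list of 86 other synaptic genes by group, ordered by size, with LM2 against Par on the left and BrM2 against Par on the right, filled and named where the adjusted p passed 0.05. In BrM2 the adhesion genes LRRTM1, ADGRL3, SLITRK3 and PTPRD were called at fitted values of 2.29 to 4.07, and no vesicle or scaffold gene was called.

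Between BrM2 and LM2, 5 H3K4me3 peaks were higher and 1 lower in BrM2 (8.45% of 71), against 2.45% of all promoter peaks. ADGRL3 (5.80 ± 0.54, adjusted p = 8.21e-23, DESeq2), LRRTM1 (4.72 ± 1.00, adjusted p = 2.30e-04, DESeq2) and SLITRK3 (2.43 ± 0.63, adjusted p = 0.00626, DESeq2) were joined by SLITRK4, another postsynaptic adhesion protein (adjusted p = 0.0147, DESeq2), and the vesicle protein SV2C (adjusted p = 0.0447, DESeq2). They held at most 0.102 and 0.407 CPM in LM2. SV2C was not called in edgeR (0.0568), and with the surrounding median removed LRRTM1 (2.74) and SLITRK3 (1.28) were not. SLITRK4 was at least 8.44-fold above LM2 against the floor, and its fitted difference of 5.78 became 5.02 with the surrounding median removed, where it was not called (adjusted p = 0.128, DESeq2). SNAP25 was lower in BrM2 (-3.08 ± 0.65, adjusted p = 2.23e-04, DESeq2).

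H3K27ac promoter peaks of the list had fewer calls. In BrM2 against Par, 1 of 66 peaks rose and 1 fell (3.03%), against 2.79% of all promoter peaks, and 15 of 70 had an unadjusted p under 0.05, against 17 of 71 for H3K4me3. PPFIA2, an active zone scaffold, went from 8.21 and 2.61 CPM in Par to 14.3 and 21.6 in BrM2 (1.70 ± 0.52, adjusted p = 0.0273, DESeq2). STX1A, a membrane fusion protein, fell by 0.92 on the log2 scale (adjusted p = 0.0159, DESeq2). Neither was called with the surrounding median removed (adjusted p = 0.149 and 0.507, DESeq2). No promoter was called in LM2 against Par or in BrM2 against LM2 by DESeq2, against 1.6% and 1.43% of all promoter peaks. There, 3 and 8 of 70 had an unadjusted p under 0.05, and edgeR called 1 and 2. With the replicate block, the H3K4me3 calls of the list were 18, 23 and 25 in LM2 against Par, BrM2 against Par and BrM2 against LM2, and the H3K27ac calls 1, 6 and 4. Of those H3K4me3 calls 15, 15 and 9 were higher and 3, 8 and 16 lower. Shares of all promoter peaks are given for the main fit only. The counts with the block, in edgeR or at an unadjusted p are therefore no result about the list.

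Few peaks lay near the 100 kb limit. Inside it, an H3K27ac peak 46208 bp from the nearest RIMS1 start held 0.93 to 2.29 CPM over the 6 libraries. The RIMS2 peak 1570 bp before its start is given above. Outside it, the nearest was an H3K27ac peak 157254 bp from the nearest SYT1 start. It held 40.1 and 23.8 CPM in Par, against 52.7 and 25.8 in LM2 and 77.7 and 58.1 in BrM2.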

How the data were processed

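ChIP-seq of H3K27ac and H3K4me3 in MDA-MB-231 (Par), LM2 and BrM2 gave 15 samples, of which 12 were libraries of the marks (2 per line and mark). The 3 inputs did not enter. Groups and replicate numbers come from the sample titles. The labels give fixation for 10 min and the study's methods for 15 min. Per the submitters' processing notes and the study's methods, reads were handled with CASAVA 1.8.2, trimmed with Trimmomatic 0.32, aligned to hg19 with Bowtie2 2.3.4.3 and passed through Picard 2.18.21. The authors called broad consensus peaks with MACS2 2.1.2 on the merged libraries of a mark, not per line. The deposited values are unnormalized counts of reads in each of those peaks, from featureCounts 1.6.0 after extending reads by 150 bases at the 3′ end. The peak BED lists were not used. 0 columns were left unmatched.

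Genes and starts follow GENCODE 44 lifted to GRCh37. All peaks of a mark entered 1 DESeq2 1.42.0 fit (R 4.3.3) with cell line as the term and 3 residual degrees of freedom. Fold changes are unshrunken and p-values are Benjamini-Hochberg adjusted over all peaks of the mark. Peaks under 0.05 are called, and "rose" and "fell" refer to calls. CPM divides by the total count in peaks. The script was tested on simulated counts with known changes. The members, gene lists and tests were chosen with earlier results of these data known.

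Same-numbered libraries of different lines deviated together from the line means (r = 0.402, 0.599 and 0.475 for H3K27ac, and 0.853, 0.794 and 0.834 for H3K4me3). The numbers may therefore pair the libraries, although the labels name no shared day or batch. The fit with that number as a block is given where it changes the call of a peak of the 7 genes, and as counts of calls for the synaptic list. Calls of the list made only with the block are not named. All other p-values come from fits that ignore such a pairing, and the number of calls depends on that choice.

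Alternatives were TMM size factors, edgeR 4.0.16 (quasi-likelihood), a mean raw count of at least 10, no independent filtering, the replicate block, removal of the median difference of other peaks within 2.5 Mb of each peak, narrower peak assignment (gene bodies alone, starts within 1 kb), and leaving out each library. Named peaks of each gene and mark are those within 2 kb of a start, the highest per kb, and called peaks (at most 4 by p), or for RIMS2 and CADM2 the largest differences among peaks averaging 20 or more normalized counts. The fifth called NRXN3 peak and 5 weak intronic peaks of NRXN3, CADM1, CADM2, NLGN1 and RIMS2 that are given by position fall outside that rule and were chosen after their values were seen. Of the synaptic list, up to 3 called peaks from each end were named, which took in all calls. SD is over the 2 replicates of a line. SE is the DESeq2 standard error of a log2 fold change, from the fit of all 6 libraries of a mark. Folds against a line with at most 3 counts in both libraries are lower bounds set against that floor.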

Additional observations from a re-analysis of the deposited data

Results flagged for a closer look

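At 6 peaks the effects of LM2 and BrM2 against Par differed by the direct test between these lines. The log2 fold change of BrM2 against LM2 was 5.42 for H3K4me3 at the internal start of NRXN3 and 4.30, 2.24 and 2.24 for its H3K27ac peaks at chr14:79950342-79951035, chr14:79477107-79479043 and chr14:80047603-80053406. It was 1.00 for H3K27ac at the 3′ end of SYT1 and -1.50 for H3K4me3 at the CADM1 start. The values of each library, the adjusted p and the libraries on which each call rests are given with those genes.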

How the results depend on the processing

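The replicate block changed no other call at the named peaks than those given above. Counts of called peaks of the 5 genes moved by more than 1.5 times for H3K4me3, in LM2 against Par to 0 in edgeR, and with the block to 2 in BrM2 against Par and 4 in BrM2 against LM2. For the synaptic list, H3K27ac calls in LM2 against Par, BrM2 against Par and BrM2 against LM2 were 1, 4 and 2 in edgeR and 1, 6 and 4 with the block, and in BrM2 against Par 0 with local medians removed. H3K4me3 calls of the list were 18, 23 and 25 with the block and 1, 2 and 3 with local medians removed, and in LM2 against Par 2 in edgeR. The shares of all peaks called in these settings are not given, so these counts show only how the calls depend on the setting. Leaving out 1 library gave 2 to 5 (BrM2 against Par) and 1 to 4 (BrM2 against LM2) called H3K27ac peaks of the 5 genes, and 0 to 0 (LM2 against Par) and 1 to 2 (BrM2 against LM2) for H3K4me3. For the list it gave 0 to 1 (LM2 against Par) and 0 to 2 (BrM2 against Par) H3K27ac calls, and 0 to 3, 1 to 5 and 1 to 5 H3K4me3 calls, lowest without Par replicate 2, BrM2 replicate 2 and LM2 replicate 2. Fits that leave out a library have fewer samples, and the cause of the other shifts was not tested. With local medians removed, the differences at the CADM2 start reversed to -1.09 (LM2) and -0.99 (BrM2) for H3K4me3 and to -0.33 (BrM2) for H3K27ac. Of the settings for single peaks, 978 left direction and call as they were, 24 lost a call, 7 gained one, 10 moved the value and 3 reversed it. The 978 include peaks never called and those of RIMS2 and CADM2, which were not tested. Fits that left a peak with no adjusted p are not among these counts. With 2 replicates per line and few counts at weak peaks, small differences could not be detected.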

Other observations

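Beyond 100 kb, 18 further peaks had the start of CADM2 as their nearest protein-coding start, 11 with H3K27ac and 7 with H3K4me3, at 358 to 1440 kb. Summed H3K27ac over the 11 was 40.8 and 24.3 CPM in Par, against 70.1 and 59.0 in LM2 and 201 and 155 in BrM2, and all 11 were higher in BrM2 than in Par with a median log2 fold change of 4.27. Summed H3K4me3 over the 7 was 2.29 and 2.53 CPM in Par, against 5.51 and 10.7 in LM2 and 27.1 and 41.0 in BrM2, and all 7 were higher in BrM2. Like the CADM2 peaks inside the limit, these values are a description with no test.

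At RIMS1, 1 H3K4me3 peak and 3 H3K27ac peaks lay 278 to 282 kb away. The H3K4me3 peak, at chr6:72313459-72315205, held 0.573 and 1.34 CPM in Par, against 1.15 and 1.93 in LM2 and 11.6 and 17.6 in BrM2. Its log2 fold change of BrM2 against Par was 3.79, while the H3K4me3 peak at the upstream-most RIMS1 start gave 0.70.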
